A study of Homo sapiens with 6 samples.

Results

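Golgi glycosyltransferases that act outside glycosaminoglycan synthesis were compared between HEY cells with and without an excess of CSGALNACT2. The members are the protein-coding genes of the deposited FPKM table whose symbols start with GALNT, B3GALT, B4GALT, ST3GAL, ST6GAL, MGAT, FUT or GCNT, without B4GALT7 and B3GALT6, which build the linker of glycosaminoglycan chains. This gave 69 of the 58735 genes. There were 20 GALNT genes, 14 sialyltransferases, 11 fucosyltransferases, 10 galactosyltransferases, 9 MGAT genes and 5 GCNT genes.

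Glycoproteins and glycolipids are finished in the Golgi by enzymes that each add 1 sugar in 1 linkage. GALNT enzymes place the first N-acetylgalactosamine of mucin-type O-glycans on serine and threonine, GCNT enzymes branch O-glycans and poly-N-acetyllactosamine chains, and MGAT enzymes add the N-acetylglucosamine branches of N-glycans. Galactosyltransferases then lengthen the chains, and sialyltransferases and fucosyltransferases cap or decorate them. CSGALNACT2 itself is an enzyme of the neighbouring chondroitin sulfate pathway and is not a member.

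HEY is a human ovarian cancer cell line. The Vector group is HEY cells carrying the empty vector, and the oeCSGALNACT2 group is HEY cells given full-length human CSGALNACT2 in the pLVX-IRES-Puro vector, with 3 RNA-seq libraries each. The study calls the sequenced cells transfected and, in a figure legend, stably overexpressing, after puromycin selection of virus-infected cells. Neither group carries any other stated change, and whether the libraries within a group were separate cultures or clones is stated nowhere in the sources used here. The p-values are therefore set against the spread of these libraries, part of which may be technical. The sample titles of the overexpressing cells name CSGALNACT1, while their descriptions and the study name CSGALNACT2.

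CSGALNACT2 was at 15.3, 8.18 and 8.12 FPKM (reads scaled by gene length and library size) in the Vector libraries 1 to 3 and at 535, 453 and 409 FPKM in the oeCSGALNACT2 libraries 1 to 3. CSGALNACT1 was at 0.056 to 0.303 FPKM. The reads recovered from the FPKM values of all genes summed to 15628834 to 18186682 per library. The mitochondrial share was 2.77 to 3.61% in Vector and 4.60 to 4.82% in oeCSGALNACT2 libraries, and its part in the results was not tested. Of the ovarian carcinoma markers KRT7, KRT8, KRT18 and PAX8 were well expressed, EPCAM was at 0.462 to 1.23 FPKM and KRT19 at 0.338 to 0.708 FPKM in Vector, and MUC16 was at 0 in Vector. The 9 markers, which also include WT1 and MSLN, summed to 179 to 327 FPKM in Vector and 336 to 580 FPKM in oeCSGALNACT2 libraries. Of these 6 had a mean of at least 1 FPKM, all 6 with a positive fold change. In a limma fit blocked on the replicate number 5 were higher at an adjusted p under 0.05, where 21.2% of all genes were. The leukocyte markers PTPRC, CD3E, CD14 and CSF1R summed to 0.133 to 0.687 FPKM, with CD3E at 0. The 6 fibroblast markers summed to 3.04 to 5.66 FPKM, mostly COL1A1, with COL3A1 at 0. The 4 endothelial markers summed to 20.3 to 31.3 FPKM in Vector and 6.5 to 10.7 FPKM in oeCSGALNACT2 libraries, nearly all of it CDH5, while PECAM1, VWF and KDR were at 0.176 to 0.352 FPKM in Vector. The part of these markers in the results was not tested, and in bulk RNA a smaller number of cells of a type cannot be told apart from less RNA per cell.

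Replicate 1 stood apart from replicates 2 and 3 in both groups. Over 11479 genes the deviations from the group mean correlated at r = 0.810 between the libraries numbered 1, at 0.631 between those numbered 2 and at 0.686 between those numbered 3. Vector 2 correlated with oeCSGALNACT2 3 at 0.590 and Vector 3 with oeCSGALNACT2 2 at 0.682, so the data set replicate 1 apart but do not tell 2 from 3. Values without replicate 1, and values from a fit blocked on the replicate number, are therefore given beside the limma results of single members whose call they change.

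Every family had members that the cells expressed. Of the 69 members 29 had a mean of at least 1 FPKM and were tested, 31 had reads but lay under this level, and 9 had no read in any library. Those without a read were GALNT8, GALNT17, GALNTL5, ST6GALNAC1, ST6GAL2, FUT5, FUT6, FUT7 and FUT9, and a count of 0 allows up to 3 reads per library. On the same strand FUT5 shares 82.5% of its exonic bases with AC024592.3, GALNT8 43.9% with KCNA6 and FUT7 27.6% with AL807752.6. The counts of 0 of these genes are therefore uncertain. Above 10 FPKM on average were 15 of the tested members, and 8 were under 3 FPKM. B4GALT5 was the highest member in the mean of both groups, and FUT8 made up 74.4% ± 1.18 (SD, n = 3) of the summed fucosyltransferase FPKM in Vector and 74.3% ± 3.48 (SD, n = 3) in oeCSGALNACT2 cells. All members together summed to 292, 359 and 369 FPKM in Vector and to 286, 377 and 374 FPKM in oeCSGALNACT2 libraries 1 to 3. These sums overlapped between the groups, and replicate 1 was the lowest in both.

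**Figure D1:**
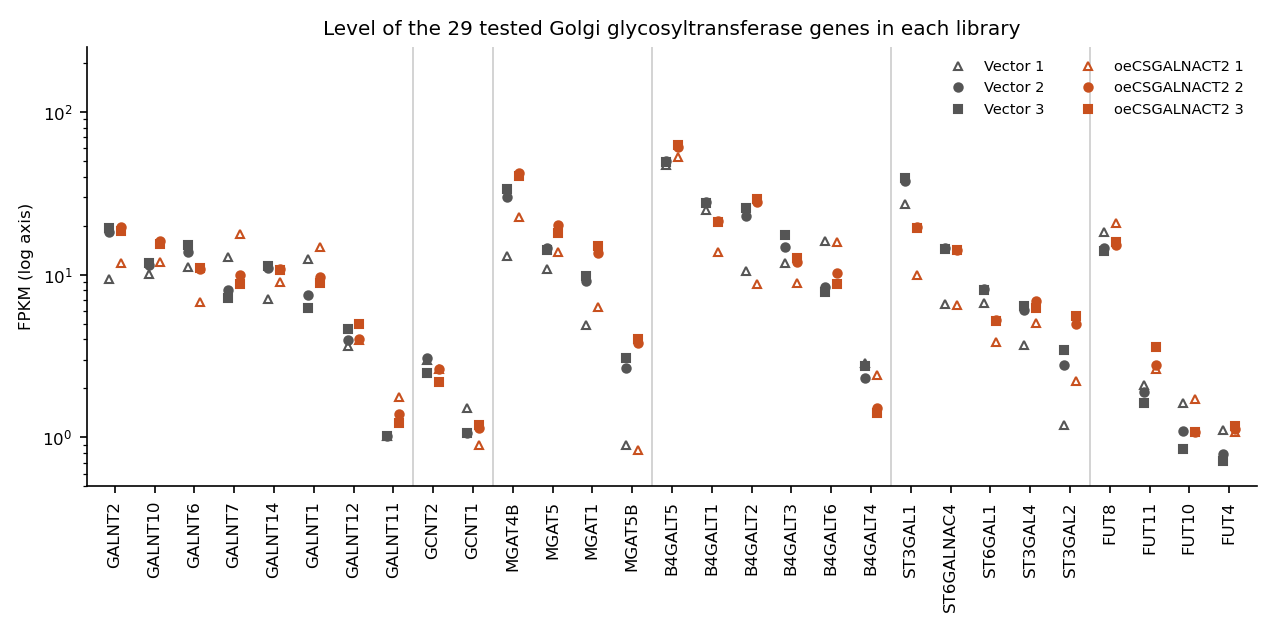
FPKM (log axis) of the 29 tested members in each library, ordered by role and level, with grey for Vector, orange for oeCSGALNACT2 and open triangles for replicate 1. The grey and orange symbols of ST3GAL1 lie apart (27.3 to 39.4 against 9.93 to 19.7 FPKM), whereas the 2 open triangles of MGAT5B lie well below all other symbols of that gene.

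None of the 29 tested members passed limma at an adjusted p under 0.05, where 1.35% of all genes tested did. The count stayed at 0 with a pseudocount of 0.1 (1.32% of all genes), without a filter (0.11%) and among protein-coding genes (1.69%). It stayed at 0 without Vector 1 (0.662%), Vector 2 (0.0608%), Vector 3 (0.0695%), oeCSGALNACT2 1 (1.48%), oeCSGALNACT2 2 (0.0435%) or oeCSGALNACT2 3 (0.0435%). At an unadjusted p under 0.05 there was 1 higher (FUT11) and there were 3 lower members (ST3GAL1, ST6GAL1 and B4GALT1), 4 in all, where 17.1% of all genes tested fell under that value. With the replicate number as a block 9 members were higher and 5 lower, 14 of 29 or 48.3%, where 43.7% of all genes passed, so the share of members is close to that of all genes. On replicates 2 and 3 alone 9 were higher and 6 lower, where 42.5% of all genes tested passed, and 13 of the 14 block calls were among these. The call that was lost there is GALNT7 (adjusted p = 0.0693 in limma). edgeR on the reads recovered from the FPKM values called 2 of 44 members, FUT1 and GALNT15, both lower, against 0.971% of all genes, and DESeq2 called 4 of 48, adding ST6GALNAC3 and ST3GAL1, against 4.54%. With RLE size factors edgeR called 2 (0.936% of all genes), and without a filter 3 (1.3%).

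The direction of the difference was mixed among the tested GALNT genes (7 positive and 1 negative fold change), galactosyltransferases (3 and 3) and sialyltransferases (2 and 3). The 4 tested MGAT and the 4 tested FUT genes were all positive, and the 2 tested GCNT genes were both negative. Over all genes tested 5646 were positive and 5833 negative. The median log2 fold change of the tested members, oeCSGALNACT2 over Vector on the log2(FPKM + 1) scale, was 0.13, against -0.01 over all genes tested. This median was 0.0025 without Vector 1. There were 20 members with a positive and 9 with a negative fold change, and 20 of 29 kept 1 direction in all 3 same-numbered pairs (12 higher, 8 lower), which is 69.0%, as over all genes tested. The libraries of the groups did not overlap for 4 higher members (GALNT10, GALNT11, FUT11 and B4GALT5) and 4 lower members (GALNT6, B4GALT1, ST3GAL1 and ST6GAL1), where 24.0% of all genes did not overlap.

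**Figure D2:**
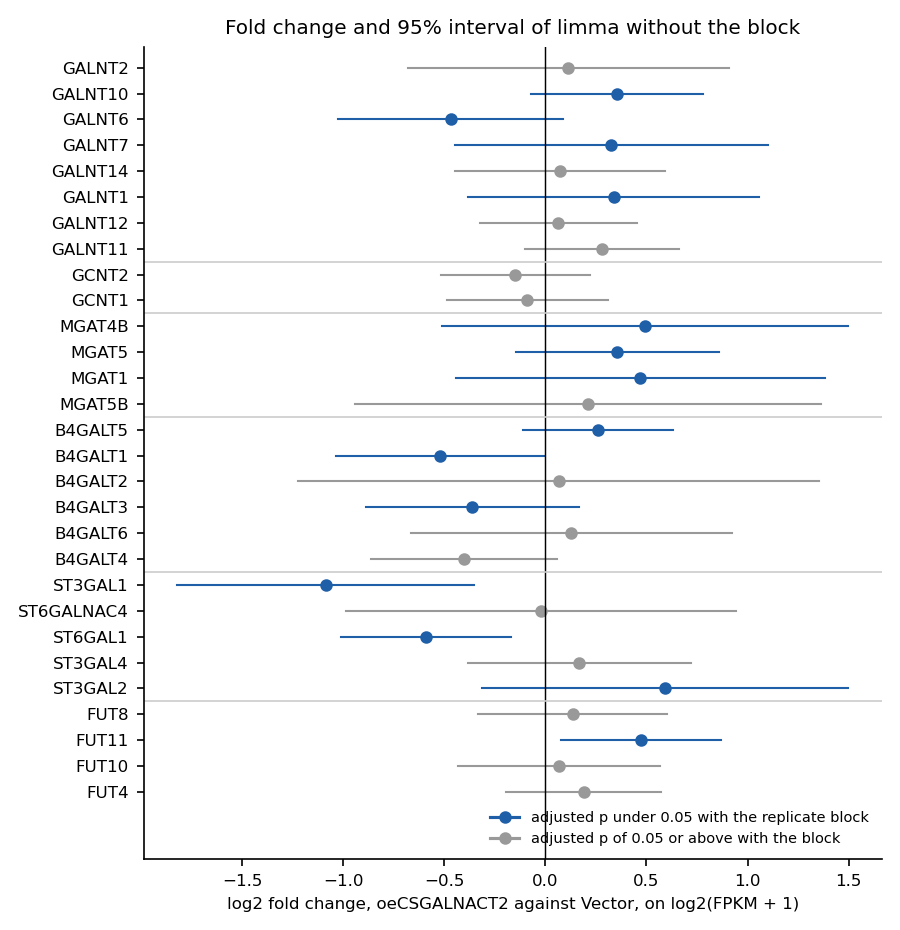
Log2 fold change (oeCSGALNACT2 over Vector, on log2(FPKM + 1)) with the 95% interval of limma without the block for the 29 tested members, by role. Blue members passed an adjusted p of 0.05 with the replicate block, 9 to the right of 0 and 5 to the left, and 3 of the intervals on the left and 1 on the right leave out 0.

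Among the sialyltransferases, which cap chains with sialic acid, ST3GAL1 and ST6GAL1 were lower and ST3GAL2 was higher in oeCSGALNACT2 cells. ST3GAL1 (chromosome 8, 133454848 to 133571940, minus strand, GRCh38) caps the galactose of core 1 O-glycans. It was at 27.3, 37.7 and 39.4 FPKM in Vector libraries 1 to 3 and at 9.93, 19.7 and 19.4 FPKM in oeCSGALNACT2 libraries 1 to 3. The highest oeCSGALNACT2 library was below the lowest Vector library, and replicate 1 was the lowest of each group. Means were 34.8 ± 6.56 and 16.3 ± 5.56 FPKM (SD, n = 3 each), a log2 fold change of -1.09 (SE 0.31, 95% interval -1.82 to -0.35). The limma adjusted p was 0.145, and 0.00189 with the block, 0.000651 on replicates 2 and 3 alone and 0.0407 in DESeq2.

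ST6GAL1 (chromosome 3, 186930485 to 187078553, plus strand) adds sialic acid to the galactose ends of N-glycans. It was at 6.71, 8.14 and 8.08 FPKM in Vector and at 3.85, 5.25 and 5.17 FPKM in oeCSGALNACT2 libraries, again with no overlap. The log2 fold change was -0.59 (SE 0.17, 95% interval -1.01 to -0.17), with a limma adjusted p of 0.161, and 0.0031 with the block and 0.00319 on replicates 2 and 3 alone. ST3GAL2, which also caps O-glycans and gangliosides and was chosen after its values were seen, went the other way with 1.19, 2.77 and 3.46 FPKM in Vector and 2.21, 5.0 and 5.54 FPKM in oeCSGALNACT2 libraries. Its groups overlapped because oeCSGALNACT2 1 was below Vector 2 and Vector 3, but it was higher in 3 of 3 pairs. The log2 fold change of ST3GAL2 was 0.59 (SE 0.38), with a limma adjusted p of 0.495, and 0.00532 with the block and 0.00887 on replicates 2 and 3 alone. ST6GALNAC4, which sialylates the N-acetylgalactosamine of sialylated core 1, was second in level with 6.64, 14.5 and 14.3 FPKM in Vector and 6.52, 14.2 and 14.2 FPKM in oeCSGALNACT2 libraries. Its log2 fold change of -0.02 had a 95% interval from -0.99 to 0.94 without the block and from -0.17 to 0.13 with it. ST3GAL4 was at 3.68 to 6.38 FPKM in Vector and 5.05 to 6.92 FPKM in oeCSGALNACT2 libraries, which overlap, with an adjusted p of 0.221 with the block.

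ST3GAL1 made up 54.1% ± 1.89 of the summed sialyltransferase FPKM in Vector and 36.3% ± 2.33 in oeCSGALNACT2 cells (SD, n = 3 each). The ratio of ST3GAL1 to ST3GAL2 was 23, 13.6 and 11.4 in Vector libraries 1 to 3 and 4.5, 3.95 and 3.5 in oeCSGALNACT2 libraries 1 to 3. The ratio was chosen after the values were seen. The lowest Vector ratio was above the highest oeCSGALNACT2 ratio, and the exact two-sided permutation test gave p = 0.1, the smallest that 3 against 3 libraries allow.

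**Figure D3:**
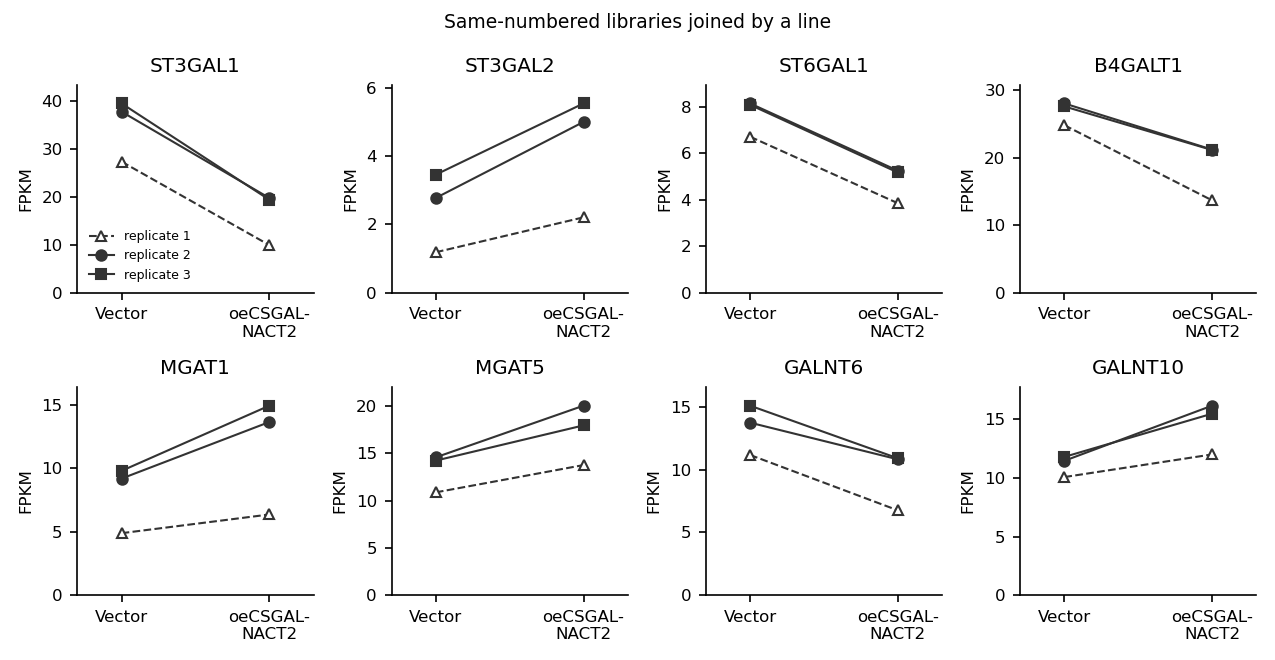
FPKM of 8 tested members, with a line joining the libraries of the same number and open triangles for replicate 1. The lines slope down in all 3 pairs for ST3GAL1, ST6GAL1, B4GALT1 and GALNT6 and up in all 3 for ST3GAL2, MGAT1, MGAT5 and GALNT10, while replicate 1 lies lowest in every panel.

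ST6GAL1 had groups that did not overlap and a block call, as did ST3GAL1, B4GALT1, GALNT6, GALNT10, B4GALT5 and FUT11. The stretch before ST6GAL1 is shown as an example, chosen after the values were seen. It runs from 250 bases before the RefSeq start up to the first base of the annotated gene (GRCh38.p14, chr3:186930276-186930484, plus strand, 64.1% GC), and capitals mark a GGGCGG match of the SP1 motif.
ST6GAL1: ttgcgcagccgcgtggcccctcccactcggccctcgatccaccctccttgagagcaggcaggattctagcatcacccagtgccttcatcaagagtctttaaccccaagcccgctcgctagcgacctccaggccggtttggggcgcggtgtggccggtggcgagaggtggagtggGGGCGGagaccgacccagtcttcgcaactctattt

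The galactosyltransferases held the highest member and differed in direction among themselves. B4GALT5 (chromosome 20, 49632945 to 49713878, minus strand), a lactosylceramide synthase, was at 46.8, 50.1 and 48.9 FPKM in Vector and at 52.5, 60.7 and 62.5 FPKM in oeCSGALNACT2 libraries. B4GALT1 (chromosome 9, 33104082 to 33167356, minus strand), which adds galactose to N-acetylglucosamine ends and joins lactose synthase in the mammary gland, was at 24.8, 28.0 and 27.6 FPKM in Vector and at 13.7, 21.2 and 21.1 FPKM in oeCSGALNACT2 libraries. Neither gene overlapped between the groups, B4GALT5 being higher and B4GALT1 lower in oeCSGALNACT2 cells. The log2 fold change of B4GALT5 was 0.26 (SE 0.15), with a limma adjusted p of 0.461, and 0.0224 with the block and 0.0145 on replicates 2 and 3 alone. That of B4GALT1 was -0.52 (SE 0.21), with a limma adjusted p of 0.285, and 0.0133 with the block and 0.00773 on replicates 2 and 3 alone. The ratio of B4GALT1 to B4GALT5 was 0.551 ± 0.0187 in Vector and 0.316 ± 0.0481 in oeCSGALNACT2 cells (SD, n = 3 each), chosen after the values were seen, with an exact two-sided permutation p of 0.1, the smallest possible here. Because the 2 genes had no overlap in opposite directions, their ratio could not overlap and this p adds no support.

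B4GALT4, a further enzyme that adds galactose to N-acetylglucosamine, was at 2.86, 2.31 and 2.76 FPKM in Vector and at 2.42, 1.52 and 1.42 FPKM in oeCSGALNACT2 libraries. The groups overlapped through replicate 1 of oeCSGALNACT2, and the log2 fold change of -0.40 (SE 0.19) had an adjusted p of 0.356 in limma, 0.0526 with the block and 0.0176 on replicates 2 and 3, and of 0.0125 in edgeR with the block. B4GALT3, chosen after its values were seen, was at 11.7 to 17.5 FPKM in Vector and 8.86 to 12.7 FPKM in oeCSGALNACT2 libraries, lower in 3 of 3 pairs (adjusted p = 0.00937 in limma with the block and 0.0315 on replicates 2 and 3 alone). It shares 28.7% of its exonic bases with PPOX on the opposite strand, so its value is uncertain without stranded counting. B4GALT2 and B4GALT6 did not pass with the block, and their libraries numbered 1 lay apart in opposite ways. In B4GALT2 replicate 1 was at 10.6 and 8.71 FPKM against 22.9 to 29.2 FPKM in the other libraries, and in B4GALT6 it was at 16.0 and 15.9 FPKM against 7.86 to 10.3 FPKM. None of the 4 B3GALT genes reached the level tested.

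All 4 tested MGAT genes had positive fold changes, with a median of 0.41 on the log2 scale, where 5646 of all 11479 genes tested had one, and 3 of them were higher with the block, where 21.2% of all genes were. MGAT4B (chromosome 5, 179797597 to 179806952, minus strand), which starts an N-glycan branch on the mannose of the lower arm, was at 13.0, 30.1 and 33.8 FPKM in Vector and at 22.7, 42.2 and 40.2 FPKM in oeCSGALNACT2 libraries. MGAT5 (chromosome 2, 134119983 to 134454621, plus strand), which makes the branch that binds galectins, was at 10.9, 14.6 and 14.2 FPKM in Vector and at 13.8, 20.1 and 18.0 FPKM in oeCSGALNACT2 libraries. MGAT1 (chromosome 5, 180784782 to 180815652, minus strand), which opens the way to hybrid and complex N-glycans, was at 4.87, 9.17 and 9.78 FPKM in Vector and at 6.34, 13.6 and 14.9 FPKM in oeCSGALNACT2 libraries. The groups overlapped for all 3 genes, in each case because oeCSGALNACT2 1 was below at least 1 Vector library, and all 3 were higher in 3 of 3 pairs.

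The log2 fold changes were 0.49 (SE 0.42) for MGAT4B, 0.35 (SE 0.21) for MGAT5 and 0.47 (SE 0.38) for MGAT1. The limma adjusted p was 0.618, 0.457 and 0.599 for these genes in the same order. It was 0.0164, 0.00892 and 0.00717 with the block, and 0.0183, 0.0149 and 0.00468 on replicates 2 and 3 alone. MGAT4B shares 1.91% of its exonic bases with the opposite strand of SQSTM1, which was at 56.1 FPKM on average. The ratio of MGAT5 to MGAT1 overlapped between the groups (1.46 to 2.23 in Vector and 1.21 to 2.17 in oeCSGALNACT2 cells, exact two-sided permutation p = 0.6). The 4th tested gene, MGAT5B, was at 0.895, 2.66 and 3.09 FPKM in Vector and 0.837, 3.79 and 4.0 FPKM in oeCSGALNACT2 libraries, and passed on replicates 2 and 3 alone (adjusted p = 0.0378) but not with the block (0.221).

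There were 8 tested GALNT genes, from 1.24 FPKM (GALNT11) to 16.1 FPKM (GALNT2) in the mean of all libraries, and 7 of them had a positive fold change. GALNT2, a broad initiating enzyme and the highest, was at 9.34, 18.2 and 19.4 FPKM in Vector and at 11.8, 19.5 and 18.5 FPKM in oeCSGALNACT2 libraries, and its log2 fold change of 0.11 turned to -0.20 without Vector 1 and to -0.01 without oeCSGALNACT2 2. GALNT10 (chromosome 5, 154190730 to 154420984, plus strand), which acts on peptides that already carry N-acetylgalactosamine, was at 10.1, 11.5 and 11.8 FPKM in Vector and at 12.0, 16.2 and 15.5 FPKM in oeCSGALNACT2 libraries. GALNT6 (chromosome 12, 51351247 to 51392867, minus strand), an initiating enzyme known from breast cancer, was at 11.2, 13.8 and 15.1 FPKM in Vector and at 6.76, 10.8 and 10.9 FPKM in oeCSGALNACT2 libraries. GALNT10 was higher and GALNT6 lower with no overlap of the groups, each by a narrow gap.

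The log2 fold change was 0.35 (SE 0.18) for GALNT10, with a limma adjusted p of 0.378, and 0.0136 with the block and 0.0072 on replicates 2 and 3 alone. It was -0.47 (SE 0.23) for GALNT6, with a limma adjusted p of 0.373, and 0.00958 with the block and 0.0129 on replicates 2 and 3 alone. GALNT6 and GALNT10 had no overlap in opposite directions, so their ratio could not overlap either and its permutation p adds no support. The ratio of GALNT6 to GALNT10 was 1.11, 1.2 and 1.28 in Vector and 0.563, 0.670 and 0.705 in oeCSGALNACT2 libraries, chosen after the values were seen (exact two-sided permutation p = 0.1, the smallest possible). Above 1 in every Vector library, this ratio was below 1 in every oeCSGALNACT2 library. GALNT7 and GALNT1, also chosen after their values were seen, were higher in 3 of 3 pairs and passed limma with the block (adjusted p = 0.0171 and 0.0155), and GALNT1 also on replicates 2 and 3 alone (0.0287). In both genes replicate 1 was the highest library of its group, at 12.8 and 17.8 FPKM for GALNT7 and 12.4 and 14.8 FPKM for GALNT1, against 6.26 to 9.99 FPKM in the libraries numbered 2 and 3. GALNT11, GALNT12 and GALNT14 did not pass limma with the block (adjusted p = 0.159, 0.523 and 0.57), while GALNT11 passed edgeR with the block (0.026).

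Of the fucosyltransferases FUT8 dominated and FUT11 was the only tested one to pass limma with the block. FUT8 (chromosome 14, 65410592 to 65744121, plus strand), which adds the core fucose of N-glycans, was at 18.1, 14.7 and 14.0 FPKM in Vector and at 20.8, 15.1 and 15.9 FPKM in oeCSGALNACT2 libraries, with a log2 fold change of 0.13 (95% interval -0.33 to 0.60) and an adjusted p of 0.141 with the block. FUT11 (chromosome 10, 73772291 to 73780251, plus strand) was at 2.09, 1.91 and 1.64 FPKM in Vector and at 2.64, 2.79 and 3.57 FPKM in oeCSGALNACT2 libraries. Its groups did not overlap, and its log2 fold change of 0.47 (SE 0.16) had a limma adjusted p of 0.218, and 0.0425 with the block and 0.0162 on replicates 2 and 3 alone. FUT4, which makes Lewis x type structures, was at 1.11, 0.795 and 0.712 FPKM in Vector and at 1.07, 1.12 and 1.18 FPKM in oeCSGALNACT2 libraries, overlapping in replicate 1 (adjusted p = 0.362 with the block).

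The 2 tested GCNT genes were low and did not pass in either fit. GCNT2, which makes the I branch of poly-N-acetyllactosamine, was at 2.98, 3.09 and 2.47 FPKM in Vector and at 2.61, 2.62 and 2.18 FPKM in oeCSGALNACT2 libraries. GCNT1, the core 2 branching enzyme, was at 1.51, 1.07 and 1.06 FPKM in Vector and at 0.896, 1.14 and 1.19 FPKM in oeCSGALNACT2 libraries. Both overlapped, with log2 fold changes of -0.15 (95% interval -0.52 to 0.22) and -0.09 (95% interval -0.49 to 0.31), and that of GCNT1 turned to 0.07 on replicates 2 and 3 alone. GCNT3, a mucin-type core 2 enzyme chosen after its values were seen, had 0, 0 and 4 reads in Vector and 8, 7 and 5 in oeCSGALNACT2 libraries, which do not overlap, and a ratio of summed reads, Vector over oeCSGALNACT2, of 0.198 (95% counting interval 0.0491 to 0.59). GCNT4 and GCNT7 had 10 to 26 summed reads per group and overlapped.

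FUT1 and GALNT15, the members that edgeR called, lay below the level tested by limma and were chosen after their values were seen. FUT1 (chromosome 19, 48748011 to 48755390, minus strand) makes the H antigen, the base of the ABO blood groups. It had 60, 103 and 112 reads in Vector and 20, 20 and 18 reads in oeCSGALNACT2 libraries. All oeCSGALNACT2 libraries were below all Vector libraries. The summed reads per recovered read were 4.69 times as high in Vector (95% counting interval 3.52 to 6.33). Its share of the summed fucosyltransferase FPKM was 6.05% ± 2.31 in Vector and 1.13% ± 0.16 in oeCSGALNACT2 cells (SD, n = 3 each).

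GALNT15 (chromosome 3, 16174649 to 16231992, plus strand), a member of the initiating family, had 35, 45 and 37 reads in Vector and 0, 2 and 0 reads in oeCSGALNACT2 libraries. The ratio of summed reads was 57.8 with a 95% interval from 15.7 to 483, which covers counting error only, as do the other intervals of summed reads. The edgeR adjusted p was 0.0488 for FUT1 and 0.0454 for GALNT15, just under the threshold. FUT1 passed without Vector 1 (adjusted p = 0.0444) and missed it without Vector 2 (0.274), Vector 3 (0.234), oeCSGALNACT2 1 (0.0576), oeCSGALNACT2 2 (0.242) or oeCSGALNACT2 3 (0.245). GALNT15 passed without oeCSGALNACT2 1 (0.0499) and missed it without Vector 1 (0.0706), Vector 2 (0.263), Vector 3 (0.213), oeCSGALNACT2 2 (0.163) or oeCSGALNACT2 3 (0.215). Of all genes 0.424% passed edgeR without Vector 1, 0.0202% without Vector 2, 0.0269% without Vector 3, 1.28% without oeCSGALNACT2 1, 0.0135% without oeCSGALNACT2 2 and 0.0136% without oeCSGALNACT2 3. Both genes passed edgeR with the block (0.000455 and 0.000354) and on replicates 2 and 3 alone (1.06e-06 and 8.37e-06), where 45.2% of all genes passed.

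The stretches before these 2 genes are shown because edgeR called these members. They run from 250 bases before the RefSeq start to the first base of the annotated gene (GRCh38.p14; FUT1 chr19:48755391-48755608, minus strand, and GALNT15 chr3:16174430-16174648, plus strand), 5′ to 3′, with capitals for the TGANTCA match of the AP-1 motif.
FUT1: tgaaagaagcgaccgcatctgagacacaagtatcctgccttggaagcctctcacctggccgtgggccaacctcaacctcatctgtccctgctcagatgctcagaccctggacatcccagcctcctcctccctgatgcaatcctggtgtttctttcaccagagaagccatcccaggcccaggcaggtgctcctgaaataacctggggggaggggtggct
GALNT15: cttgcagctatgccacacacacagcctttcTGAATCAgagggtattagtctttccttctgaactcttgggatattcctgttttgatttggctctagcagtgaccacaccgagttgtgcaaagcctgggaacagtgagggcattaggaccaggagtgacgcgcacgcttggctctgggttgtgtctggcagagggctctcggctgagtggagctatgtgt

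The 250 bases before the RefSeq start were searched on both strands for 5 motifs, TGANTCA (AP-1), GCGNGGGCG (EGR), GGGCGG (SP1), TGACGTCA (CRE) and CCAAT, of which an EGR match can overlap an SP1 match. RefSeq promoters were matched for 52 of the 69 members. AP-1 was in 7.69% of them and in 6.57% of all 35116 promoters of the table, EGR in 7.69% and 8.41%, SP1 in 57.7% and 42.6%, CRE in 1.92% and 1.65%, and CCAAT in 23.1% and 32.0%. The median GC content was 65% in the promoters of the members and 58% in all promoters, and its part in these shares was not tested. The printed FUT1 stretch holds none of the 5, GALNT15 holds AP-1 at 220 bases before its start and ST6GAL1 holds SP1 at 76 bases before its start. A second SP1 match of ST6GAL1, on the minus strand at 15 bases before its start, lies outside the printed stretch. These matches describe the letters and not a bound site.

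With the block edgeR also called 4 other members under 1 FPKM, 3 lower and 1 higher, chosen after their values were seen. ST6GALNAC3, a sialyltransferase of gangliosides and O-glycans, had 190, 167 and 113 reads in Vector and 59, 35 and 16 reads in oeCSGALNACT2 libraries (edgeR adjusted p = 0.117, and 7.7e-05 with the block). GALNT3, known for glycosylating the phosphate hormone FGF23, had 128, 101 and 53 reads in Vector and 34, 46 and 30 in oeCSGALNACT2 libraries (edgeR adjusted p = 0.177, and 0.00645 with the block). GALNT16 had 100, 142 and 159 reads in Vector and 24, 84 and 70 in oeCSGALNACT2 libraries (edgeR adjusted p = 0.258, and 0.00351 with the block). None of these 3 genes overlapped between the groups, which adds no support because they were chosen by their values. GALNT5, GALNT18, GALNT4 and GALNT13, also under 1 FPKM, did not overlap either. The share of all genes without overlap, 24.0%, is for genes of at least 1 FPKM and was not computed under that level. MGAT2, which completes the step to complex N-glycans, went the other way with 0, 15 and 27 reads in Vector and 5, 54 and 64 in oeCSGALNACT2 libraries (edgeR adjusted p = 0.566, and 0.0339 with the block), and it overlaps an annotated antisense gene over 91.9% of its exonic bases. With the block edgeR called 11 members higher and 11 lower of 44, where 42.3% of all genes passed, and 6 of the 22 were under the 1 FPKM level (FUT1, GALNT15, ST6GALNAC3, GALNT3, GALNT16 and MGAT2).

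**Figure D4:**
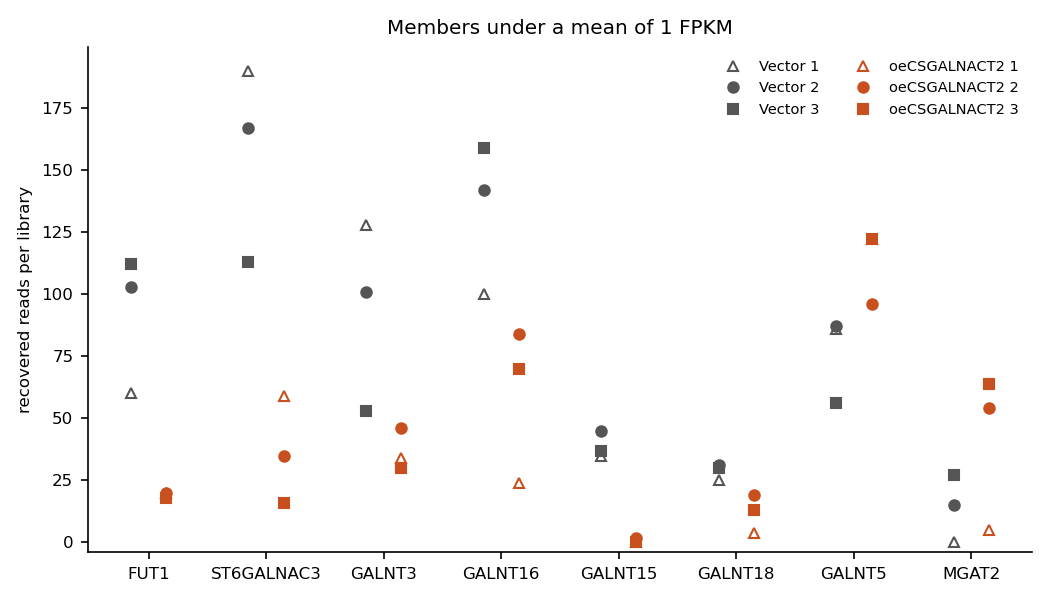
Recovered reads per library of 8 members under a mean of 1 FPKM, with grey for Vector, orange for oeCSGALNACT2 and open triangles for replicate 1. FUT1 lies at 60 to 112 reads for grey and 18 to 20 for orange symbols, GALNT15 at 35 to 45 and 0 to 2, while GALNT5 (56 to 87 against 96 to 122) and MGAT2 are higher in oeCSGALNACT2 cells.

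GALNT5 had 86, 87 and 56 reads in Vector and 122, 96 and 122 in oeCSGALNACT2 libraries (edgeR adjusted p = 0.347), and GALNT18 had 25, 31 and 30 against 4, 19 and 13 (0.328). MGAT4A, ST3GAL3, ST3GAL5 and ST3GAL6 had 72 to 320 summed reads per group, with ratios of Vector to oeCSGALNACT2 between 1.07 and 1.40. ST3GAL6 lies antisense to the highly expressed DCBLD2, and GALNT4 (28 and 55 summed reads) shares 93.2% of its exonic bases with POC1B-GALNT4, so these values are uncertain. MGAT4D had 6 and 0 summed reads and GALNT13 7 and 0. With a group's sum of 0 set to 3 reads the ratios of Vector to oeCSGALNACT2 were 1.98 and 2.31. These are not lower bounds, since a count of 0 allows up to 3 reads per library and the Vector reads carry counting error too. The unadjusted p of DESeq2 was 0.285 for MGAT4D and 0.173 for GALNT13. Of the 31 members under the level tested that had reads, 17 had 50 or fewer over all 6 libraries.

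The separation of replicate 1 followed the base composition of the members. The difference of replicate 1 from the mean of replicates 2 and 3 on the log2(FPKM + 1) scale had the same sign in both groups for 26 of the 29 tested members, 8 higher and 18 lower, with Pearson r = 0.903 and Spearman rho = 0.906 between the groups. Across the same 29 genes this difference correlated with the GC content of the longest protein-coding transcript at r = -0.897 in Vector and -0.846 in oeCSGALNACT2 cells, and across all genes tested at -0.804 and -0.759. GC-poor members such as GALNT1, GALNT7 and B4GALT6 were higher in replicate 1, and GC-rich ones such as MGAT4B, B4GALT2 and MGAT5B were lower. GC content and the fold change between the groups had r = 0.045 over the members and r = 0.170 (Spearman rho = 0.216) over all genes tested. These correlations are across genes that share libraries and are descriptions, and the part of base composition in the single differences was not tested. With the block and each library's GC trend removed, 10 members were higher and 5 lower, where 42.1% of all genes passed, and 13 of the 14 block calls were among them. FUT11 was lost (adjusted p = 0.084 in limma), and FUT8 (0.0293) and B4GALT6 (0.0462) were added.

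**Figure D5:**
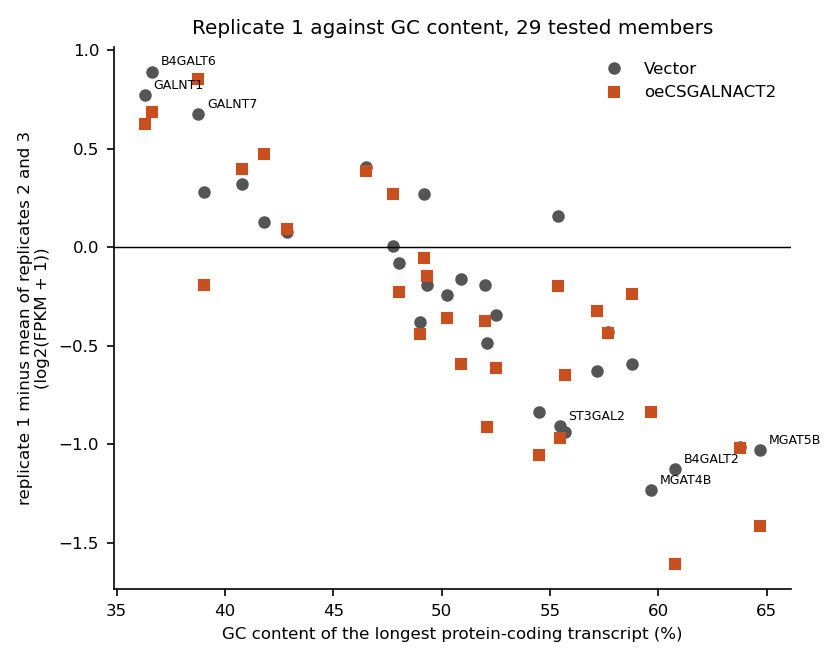
Replicate 1 minus the mean of replicates 2 and 3, on log2(FPKM + 1), against the GC content (%) of the longest protein-coding transcript, for the 29 tested members, with grey circles for Vector and orange squares for oeCSGALNACT2. The points fall from left to right in both groups (r = -0.897 and -0.846).

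The genes that supply or prepare these enzymes were counted in 6 lists of 105 genes, 81 of them tested. None passed limma without the block (6 at an unadjusted p under 0.05, 4 higher and 2 lower), and none passed edgeR or DESeq2. With the block 18 were higher and 16 lower, 42.0%, against 43.7% of all genes. In the lipid-linked oligosaccharide and oligosaccharyltransferase list, which builds and transfers the N-glycan precursor, 8 of 22 were higher and 0 lower with the block, where 21.2% of all genes were higher and 22.5% lower. Examples are DAD1, a subunit of oligosaccharyltransferase, at 105 FPKM in Vector and 133 FPKM in oeCSGALNACT2 cells (adjusted p = 0.0064 with the block) and ALG1, which adds the first mannose, at 2.80 and 4.55 FPKM (0.00521). Of the 22 tested genes of sugar nucleotide synthesis 3 were higher and 6 lower, among them GNE, the first enzyme of sialic acid synthesis, at 8.59 and 5.53 FPKM (0.00383), and GMDS, the first enzyme of GDP-fucose synthesis, at 6.67 and 3.76 FPKM (0.00274). NANS, the enzyme that follows in sialic acid synthesis, was at 9.42 and 15 FPKM (0.00329).

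Of the 13 tested core 1 and chain extension enzymes 2 were higher and 6 lower with the block, against the same 21.2% and 22.5% of all genes, and 1 and 3 with the GC trend removed as well. C1GALT1, the core 1 synthase, at 7.15 and 5.54 FPKM, was lower with the block (adjusted p = 0.0215) and missed the threshold with the GC trend removed (0.0913). Of the 10 Golgi sugar nucleotide transporters 2 were higher and 3 lower with the block, and 2 and 1 with the GC trend removed. Of the 9 tested trimming glycosidases 2 were higher and 0 lower, and 1 and 0 with the GC trend removed, and of the 5 tested sialidases and galectins 1 was higher (NEU1, a lysosomal sialidase, at 5.21 and 7.97 FPKM) and 1 lower (NEU3, at 3.8 and 2.82 FPKM).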

How the data were processed

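RNA of HEY cells (3 Vector and 3 oeCSGALNACT2 libraries; TRIzol, SMARTER mRNA kit, Novogene) was sequenced. The authors deposited FPKM values, scaled by gene length and library size, and raw counts per gene. The counts used here cover 1310 genes, so FPKM was the main unit. For the aligner and the counter, the name is not given in the sources used here. Among the submitters' processing notes is build mm10, but all 58735 genes have the position of GENCODE 29 on GRCh38. Reads were recovered from the FPKM values (100% whole within 0.01 of a read, equal to the deposited counts for all 1310 genes).

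Groups were compared on log2(FPKM + 1) with limma 3.58.1 (R 4.3.3, variance trend) for the 11479 genes with a mean of at least 1 FPKM, with Benjamini-Hochberg adjustment over all of them and a threshold of 0.05. Alternatives were a pseudocount of 0.1, no filter, only protein-coding genes, a block for the replicate number, leaving out each library, replicates 2 and 3 alone, and edgeR 4.0.16 (quasi-likelihood, TMM or RLE) and DESeq2 1.42.0 on recovered reads. Only limma and edgeR with TMM, both without the block, were tested on simulated data. Those data held no effect of replicate 1 or of GC content, and the other settings were not tested in this way. The labels number the libraries without saying what a number shares. Same-numbered libraries deviated together (r = 0.810, 0.631 and 0.686), and so did Vector 3 with oeCSGALNACT2 2 (0.682) and Vector 2 with oeCSGALNACT2 3 (0.590), so the block rests on the data and mainly sets replicate 1 apart.

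The members and lists were chosen with earlier results of these data known. Members named by rule were, in each role, the 2 highest tested and the 2 with the smallest limma p. Other members and the genes named from the 6 lists were not picked by this rule. Their values had been seen, whether or not the text marks it. Promoter sequences are from RefSeq (GRCh38.p14). Of the leukocyte marker list, 1 gene is not reported here.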

Additional observations from a re-analysis of the deposited data

How the results depend on the processing

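The pseudocount, the filter, the set of genes tested and leaving out any 1 library left the limma counts of called members at 0 higher and 0 lower. Of all genes 0.0435 to 1.69% passed in these settings. The replicate block gave 9 higher and 5 lower, where 43.7% of all genes passed, and replicates 2 and 3 alone 9 and 6, where 42.5% passed. The block with each library's GC trend removed (added after the data were seen) gave 10 and 5, where 42.1% passed. The number of lower members was 2 in edgeR with TMM (0.971% of all genes) or RLE size factors (0.936%). It was 3 in edgeR without a filter (1.3%) and 4 in DESeq2 (4.54%). Each of these had 0 higher members, and edgeR with the block gave 11 higher and 11 lower, where 42.3% of all genes passed. Leaving out 1 library (added after the data were seen), edgeR called 0 to 1 members lower and 0 higher, where 0.0135 to 1.28% of all genes passed. On replicates 2 and 3 alone edgeR called 12 lower and 13 higher, where 45.2% of all genes passed. The median log2 fold change of 0.13 ranged from 0.0025 to 0.161 when 1 library was left out, and was 0.18 in edgeR, 0.17 in edgeR with the block and 0.0704 with the block and the GC trend removed. Among 17 named members 231 values kept direction and side of the threshold, 43 passed it in the alternative alone and 10 changed sign. With 1 library left out the log2 fold change ranged from -0.20 to 0.33 for GALNT2, from -0.14 to 0.0046 for GCNT1 and from -0.36 to 0.32 for ST6GALNAC4. That of GCNT1 was 0.0678 on replicates 2 and 3 and 0.0147 with the block and the GC trend removed, and that of ST6GALNAC4 was 0.0129 in edgeR and 0.0108 in edgeR with the block. The cause of these changes was not tested. Differences in members under about 100 reads over the libraries are limited by depth.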
